A study of Zea mays with 18 samples.

Results

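miR398 is a small plant microRNA family, and its 4 entries in the deposited maize tables are described here: the guides zma-miR398a and zma-miR398b, and the passenger or star strands zma-miR398a* and zma-miR398b*. They are all entries whose name begins with miR398, and they make up 4 of 246 entries in the sufficient-phosphate table and 4 of 207 in the low-phosphate table. The zma prefix marks maize and is left out below.

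The libraries hold small RNA of leaf and root tissue from Q319, an inbred maize line, whose seedlings grew in nutrient solution. Sufficient-phosphate (SP) plants had 1000 μM KH2PO4, and low-phosphate (LP) plants were moved to 5 μM. Apart from phosphate and the potassium chloride that replaced it, the labels give both solutions the same composition, copper sulphate included. The SP groups were leaf and root on day 0 (3-leaf stage) and day 8 (4-leaf stage), with 2 libraries each, and each LP group was 1 library of leaf or root on day 0, 1, 2, 4 or 8. LP days 0 to 4 were labelled 3-leaf and LP day 8 was labelled 4-leaf, so time at low phosphate and stage cannot be told apart on day 8. The labels give no separate phosphate level for LP day 0, which precedes the treatment. A biological repeat pooled segments of 15 to 20 plants, so SP p-values measure the spread between such pools. No LP day has a repeat, so p-values of the LP fits measure the scatter around a straight line over the days. The root day 8 SP libraries are day 8 by title and 4-leaf by tissue label, but another label gives them day 0, and they are taken as day 8 here.

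The miR398 guide is known in Arabidopsis for directing cleavage of messages for copper/zinc superoxide dismutases and for the copper chaperone that loads them. These enzymes remove superoxide and bind copper, and in Arabidopsis miR398 accumulates when copper is short. A microRNA is cut from a hairpin precursor as a duplex: the guide strand is loaded into an Argonaute protein, while the star strand is mostly degraded. The files hold small RNA only, so no superoxide dismutase message and no organ marker gene was measured.

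Maize has hairpin genes MIR398a and MIR398b in RefSeq (assembly Zm-B73-REFERENCE-NAM-5.0). They lie on different chromosomes. Each overlaps 1 gene annotated as a long non-coding RNA, LOC118476385 for MIR398a and LOC100274660 for MIR398b. The entries miR398a and miR398b had nearly the same reads in every library. They differed by at most 16 reads, or 0.833% of miR398b, at SP and by at most 31 reads, or 5.15%, at LP. Their counts were identical in 1 of 8 SP and 4 of 10 LP libraries. Both guide entries therefore carry 1 measurement here, and guide reads cannot be assigned to a hairpin.

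The star strands do differ between the hairpins, and miR398b* was the more abundant of them in every SP library. At SP it had 1169 reads against 114 of miR398a* in leaf on day 0, summed over both libraries, and 1271 against 90 in leaf on day 8. In root it had 65 reads against 9 on day 0 and 76 against 7 on day 8. The ratio of miR398b* to miR398a* reads was 10.3 in leaf and 7.22 in root on day 0, and 14.1 in leaf and 10.9 in root on day 8. The root values rest on few miR398a* reads, with 8, 1, 2 and 5 reads in the single libraries, and no order between organs was read from them.

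At SP all 4 entries were far higher in leaf than in root. Reads of the guide miR398a in leaf numbered 2555 and 2463 on day 0, then 3159 and 3518 on day 8. In root it had 308 and 289 reads on day 0 and 364 and 242 on day 8. Every leaf library lay above every root library, and the values of the same organ lay close together. How many of all entries separate in this way was not counted. An organ difference was common, with 119 of 149 entries called in either direction on day 0.

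Scaled to counts per 1000000 (CPM) with TMM factors, miR398a stood at 279 ± 25.2 (SD, n = 2) in leaf and 26.4 ± 1.91 in root on day 0. On day 8 it stood at 339 ± 82.0 in leaf and 29.4 ± 3.60 in root (n = 2 each). The log2 difference of leaf minus root was 3.40 on day 0 (edgeR quasi-likelihood test, Benjamini-Hochberg adjusted p = 6.28e-07) and 3.53 on day 8. For miR398b it was 3.39 on day 0 and 3.53 on day 8, from nearly the same reads.

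Reads of the star strand miR398b* in leaf numbered 622 and 547 on day 0, then 597 and 674 on day 8. In root it had 36 and 29 reads on day 0 and 45 and 31 on day 8. The organs did not overlap, which again was not counted over all entries. The log2 difference was 4.50 (edgeR adjusted p = 3.05e-07) on day 0 and 4.12 on day 8, a wider gap than that of the guide. The test of that gap is the one of the guide-to-star ratio. The rarer miR398a* had 72, 42, 41 and 49 reads in the 4 leaf libraries. Its log2 differences were 3.98 (edgeR adjusted p = 1.03e-04) on day 0 and 3.67 (edgeR adjusted p = 3.41e-04) on day 8. It passed the filter of at least 10 counts in 2 libraries through leaf alone, which favours a higher leaf level.

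All 4 entries were called higher in leaf on both days, where 43.6% of the 149 entries tested were called higher in leaf on day 0 and 38.9% on day 8. A higher leaf level was thus common among maize microRNAs in this table. The entries passed in all 16 alternatives run for each day. The call of miR398a* adds no support, since the filter let it in through leaf alone. The median entry shifted with the scaling, from 0.36 with TMM factors to -0.41 with scaling to listed reads on day 0. Relative to that median, miR398a was 3.04 and 3.05 higher on the log2 scale under these scalings, and miR398b* was 4.15 higher under both. In whole organs, fewer cells that contain an RNA and less of it per cell cannot be told apart.

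**Figure D1:**
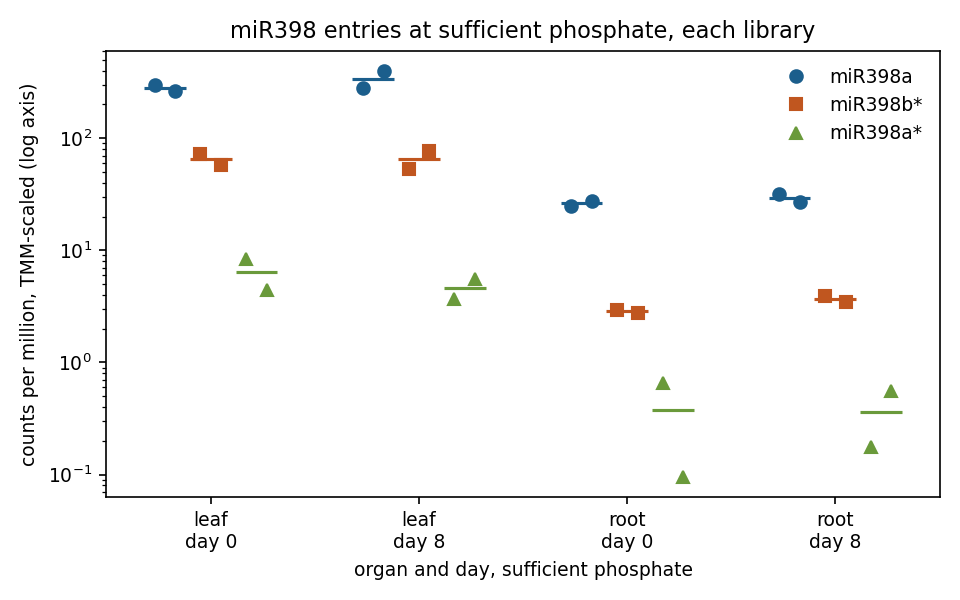
Counts per 1000000 (TMM-scaled, log axis) of miR398a, miR398b* and miR398a* in each SP library, with the mean of the 2 libraries of each group as a bar. Leaf libraries of miR398a sit between 261 and 397 and root libraries between 25.1 and 32.0, with little difference between days.

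No miR398 entry passed the test for a change from day 0 to day 8 while phosphate was sufficient. In leaf the log2 change of miR398a was 0.28 (edgeR adjusted p = 0.806) and that of miR398b* was -0.01 (edgeR adjusted p = 1). In root the changes were 0.16 for miR398a and 0.37 for miR398b* (edgeR adjusted p = 0.645). In root miR398b* had 2.93 and 2.79 CPM on day 0 and 3.95 and 3.44 on day 8, without overlap. With 2 libraries a day, a lack of overlap alone shows little, and its share over all entries was not counted. For each other pairing of entry and organ the days overlapped in CPM.

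With none of the 4 entries called in leaf, 10.1% of all 149 entries were called there in either direction. In root the calls covered 0% of the 149 entries with edgeR, against 22 at an unadjusted p under 0.05 and 8 after adjustment with DESeq2. The change in leaf minus the change in root was 0.12 for miR398a and -0.39 for miR398b*. None of the 4 entries passed this test either, while 6.04% of all entries did.

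At low phosphate the miR398 guide and its star were lower on days 4 and 8 than on day 0 in both organs. In leaf, miR398a stood at 90.0, 123.6, 77.5, 36.9 and 35.01 reads per 1000000 clean reads (RPM) on days 0, 1, 2, 4 and 8. These values correspond to 1215, 1610, 1237, 475 and 633 reads. The level was highest on day 1, and the days 4 and 8 values lay below all earlier ones.

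In root, miR398a stood at 12.1, 5.19, 10.2, 2.17 and 1.75 RPM on days 0, 1, 2, 4 and 8, or 197, 111, 208, 38 and 27 reads. Day 1 was low in root where it was high in leaf, and days 4 and 8 were again the lowest. Each value is 1 library, so no LP day has a replicate.

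The star miR398b* had 59.1, 38.8, 43.4, 21.7 and 9.51 RPM in leaf on days 0, 1, 2, 4 and 8. In root it had 3.87, 3.23, 3.03, 1.20 and 0.646 RPM, which is 63, 69, 62, 21 and 10 reads. Its highest value was on day 0 and its lowest on day 8 in both organs. The star miR398a* had 2.07, 0.768, 1.44 and 1.47 RPM in leaf on days 0 to 4 and 0 reads on day 8, where 3 reads would equal 0.166 RPM. In root its cells were blank, which stands for under 1 RPM in both libraries of a comparison. The fit set these blanks to 0.5 RPM, so no root slope and no organ difference of miR398a* is given at LP.

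Against day 0 of the same organ, miR398a in leaf was 2.44-fold lower on day 4 (95% interval 2.19 to 2.72) and 2.57-fold lower on day 8 (2.33 to 2.83). In root it was 5.56-fold lower on day 4 (3.91 to 8.09) and 6.93-fold lower on day 8 (4.62 to 10.8). The star miR398b* on day 8 was 6.21-fold lower in leaf (5.26 to 7.37) and 5.98-fold lower in root (3.05 to 13.1). For miR398a* in leaf the reads went from 28 on day 0 to 0 on day 8. With the floor of 3 reads set per library the level was at least 12.5-fold lower, and with the counting error of the 28 reads included the lower limit was 9.51-fold. The intervals are exact binomial ones, cover counting error only and say nothing of the spread between plants.

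The share of all entries that were this much lower differs by day and organ. Among entries with at least 30 reads in the higher library, 9.24% were at least 2-fold lower in leaf on day 4 and 23.1% on day 8. In root the shares were 11% on day 4 and 14.2% on day 8. The 3 entries miR398a, miR398b and miR398b* were past 2-fold in each of these 4 comparisons. In root on day 4, miR398a had the lowest ratio to day 0 of all 118 entries, and on day 8 the fourth lowest of 127. In leaf on day 8, miR398b* had the second lowest ratio of 121 entries, whereas miR398a ranked 24.

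In the authors' deposited table of single-library comparisons, a significance mark stood beside miR398a, miR398b and miR398b* on day 4 and day 8 in leaf and in root. The authors' table also marked miR398a* in leaf on days 1 and 8, and both guides in root on day 1. No miR398 entry was marked on day 2 in the authors' deposited table. Over all entries with a fold, the authors' deposited table marked as lower 16.6% in leaf on day 1, 6.18% on day 4 and 21.2% on day 8. In root it marked 6.47% on day 1, 10% on day 4 and 14.1% on day 8.

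**Figure D2:**
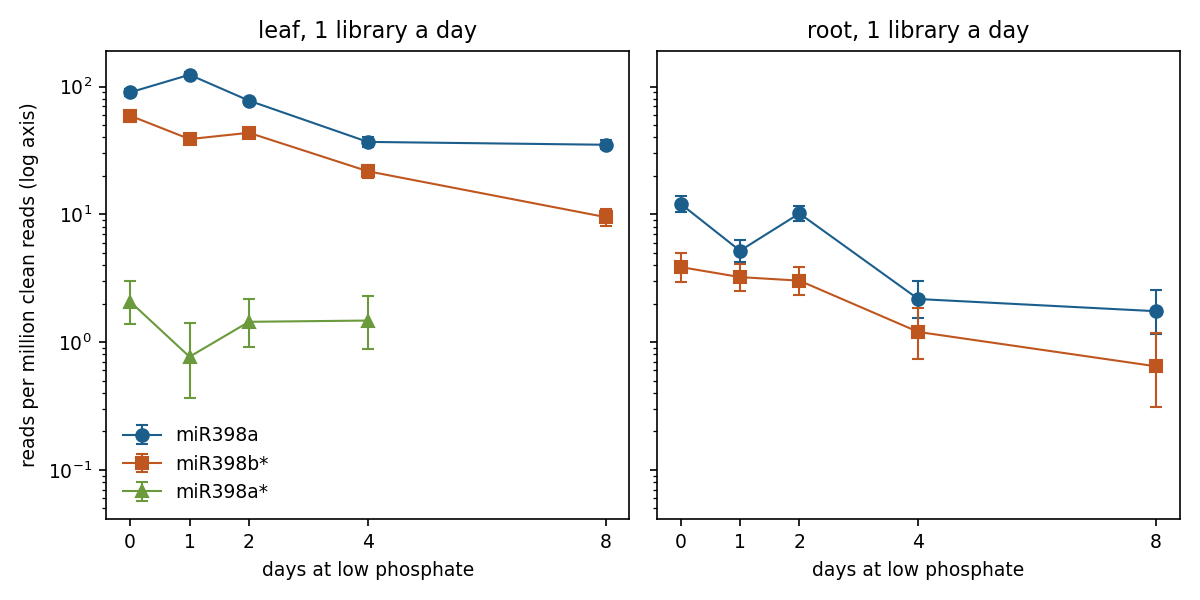
Reads per 1000000 clean reads (log axis) of miR398a, miR398b* and, in leaf, miR398a* on each day at low phosphate, 1 library a day, with exact Poisson 95% intervals for counting error as bars. In leaf miR398a goes from 90.0 on day 0 to 35.01 on day 8, and in root from 12.1 to 1.75; miR398a* had 0 reads in leaf on day 8 and is not drawn there.

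A trend over the 5 days was fitted with limma on log2(RPM + 1) as a slope per unit of log2(day + 1), which counts early days more than late ones. The scale understates the change of rare entries. Of the miR398 entries 1 passed: miR398b* fell in leaf, with a slope of -0.77 (SE 0.14, limma adjusted p = 0.0146, n = 10 libraries in the fit). The slope of miR398a in leaf was -0.55 (SE 0.20, limma adjusted p = 0.142) and that of miR398b -0.57 (limma adjusted p = 0.133). For miR398a* it was -0.38 (limma adjusted p = 0.122). The root blanks of miR398a*, all set to 0.5 RPM, add no scatter to the shared fit, so its p-value may be too low. Over all 151 entries tested, 1.99% were called lower in leaf.

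The call of miR398b* in leaf rests on the day 8 library. Without that library its slope was -0.54 (limma adjusted p = 0.274). It was also not past the threshold with edgeR on the reads recovered from the RPM values (-0.80, adjusted p = 0.0512). Nor was it with leaf fitted without root (limma adjusted p = 0.175) or with scaling to listed reads (-0.47, limma adjusted p = 0.0587). The lost call was not particular to miR398b*. Without leaf day 8, limma called 0 of 149 entries in leaf, with 21 at an unadjusted p under 0.05. With leaf fitted without root it called 0 of 151, with 20 at that level. The edgeR fit called 6 entries and scaling to listed reads 7, all of them higher.

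In root none of the 3 measured entries passed, although all slopes were below 0. The slope was -0.72 for miR398a and for miR398b (limma adjusted p = 0.0692 each) and -0.53 for miR398b* (limma adjusted p = 0.0643). Of all 151 entries, 2.65% were called lower in root. All 3 passed where the trend was fitted on day itself, with slopes per day of -0.27 for miR398a (limma adjusted p = 0.0227) and -0.21 for miR398b* (limma adjusted p = 0.00442). They also passed with a pseudocount of 0.1 RPM, where the slopes were -0.88 and -0.80. Over all 151 entries, 8 were called lower in root on day itself and 7 with that pseudocount, against 4 in the main setting. With a pseudocount of 5 RPM limma called 0 entries in root in either direction, with 24 at an unadjusted p under 0.05. With edgeR on recovered reads 10 entries were called there, all of them higher.

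The slopes in leaf and root were not distinguished. Leaf minus root was 0.17 for miR398a and -0.24 for miR398b*, and 0 of 3 entries passed. The calls covered 0% of the 151 entries with limma and 0 with edgeR on recovered reads, and 9 entries had an unadjusted p under 0.05 with limma.

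The summed RPM of listed microRNAs moved along the leaf course, and its part in the leaf values was not tested. Over distinct entries the sum was 1330654 RPM in leaf on day 0 and 586272 on day 8, while in root it stayed between 989755 and 1093758. The leaf sum includes the abundant entries miR528a and miR528b, which were themselves lower on day 8. They had 196721 and 233652 RPM on day 0 and 69811 and 82906 on day 8. A read shared by several entries is counted in each of them, so such sums can exceed the number of reads.

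As a share of the listed sum, miR398a in leaf was 67.6 per 1000000 on day 0, 40.8 on day 4 and 59.7 on day 8. On that scale the guide in leaf was 1.13-fold lower on day 8 and 1.66-fold lower on day 4. The share of miR398b* in leaf went from 44.4 to 16.2 per 1000000, 2.74-fold lower on day 8. In root the share of miR398a went from 12.2 to 1.60 per 1000000, 7.65-fold lower. With this scaling the slope of the median entry in leaf rose from 0.04 to 0.32, and miR398b* relative to the median entry moved from -0.81 to -0.79.

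The organ difference seen at SP was present at LP too. Over all days the log2 difference of leaf minus root was 3.45 for miR398a, 3.42 for miR398b and 3.27 for miR398b*. The added 1 RPM narrows the gap of entries rare in root, here miR398b* most, so no order between guide and star was read from these values. With edgeR on recovered reads the difference was 4.59 for miR398a and 4.68 for miR398b*. All 3 entries were called higher in leaf with limma, as were 33.8% of the 151 entries, and they passed in each of the 19 alternatives. Counting both directions, 106 of the 151 entries were called. On single days the leaf level of miR398a was 7.45, 23.8, 7.64, 16.96 and 20.1 times the root level on days 0, 1, 2, 4 and 8. For miR398b* these ratios were 15.3, 12.02, 14.4, 18.1 and 14.7. The ratio of the guide thus varied more between days than that of the star.

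**Figure D3:**
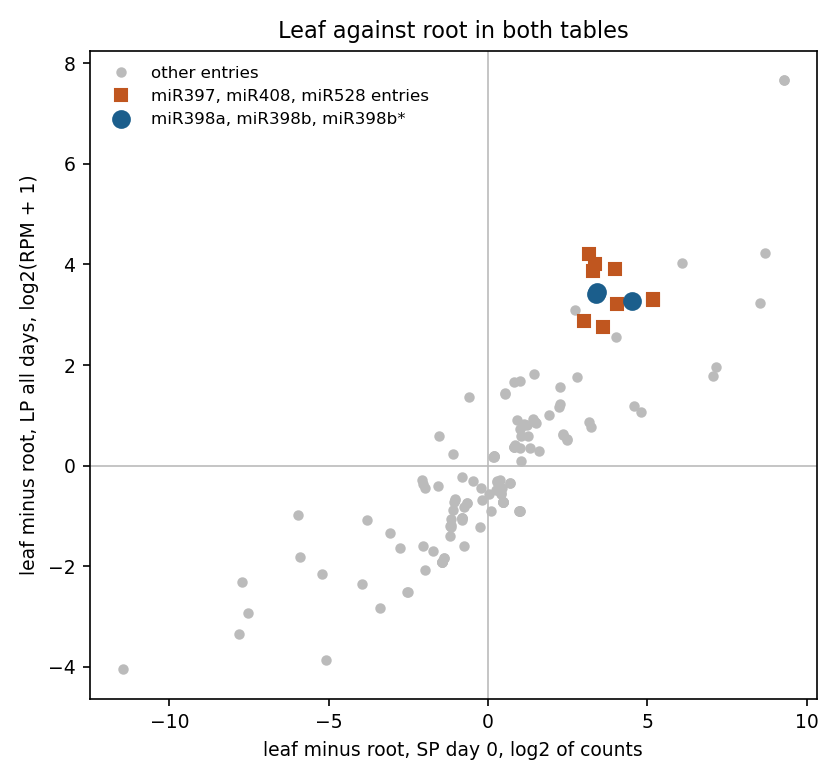
Log2 difference of leaf minus root at SP on day 0 (x axis, edgeR) against that at LP over all days (y axis, limma on log2(RPM + 1)) for the 137 entries tested in both tables, miR398a* left out. The miR398 points lie at 3.40 and 4.50 on the x axis and at 3.45 and 3.27 on the y axis, among the entries of miR397, miR408 and miR528. The added 1 RPM on the y axis narrows the difference of entries rare in an organ, such as miR398b* in root.

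Day 8 against day 0 can be set side by side for the SP and LP plants, but the tables were normalized separately and the difference was not tested. In leaf the day 8 level of miR398a was 1.21 times the day 0 level at SP and 0.389 times at LP. In root the ratio was 1.11 at SP and 0.144 at LP. For miR398b* the ratios were 0.991 at SP and 0.161 at LP in leaf, and 1.30 at SP and 0.167 at LP in root. The SP ratios come from 2 libraries a day and the LP ratios from 1. The LP values are per clean reads, while TMM scales SP on the listed entries. As a share of listed entries the LP ratio of miR398a was 0.883 in leaf, nearer to the SP ratio with TMM, and 0.131 in root. With SP also scaled to listed reads, the SP change of miR398a is given on the log2 scale, not as a ratio. It was 0.39 in leaf, against 0.28 with TMM, and 0.11 in root, so day 8 lay above day 0 in both organs. The LP share ratio of miR398b* was 0.365 in leaf and 0.151 in root.

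The ratio of guide to star reads can be taken within a library without any scaling. The guide reads may come from both hairpins, so it is not the balance of one duplex. At SP there were 4.09, 4.47, 5.27 and 5.22 reads of miR398b per read of miR398b* in the leaf libraries. In root there were 8.53, 10.0, 8.09 and 7.74. The organs did not overlap, and miR398b* made up a larger part of the guide and star reads in leaf.

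On the log2 scale, with a read added to guide and to star, the SP ratio was 2.24 ± 0.18 (SD, n = 4) in leaf and 3.06 ± 0.16 in root. The difference was -0.82. The two-sided exact permutation test over the 8 libraries gave p = 0.0286, the smallest it can give for 4 against 4. Days 0 and 8 were pooled in each organ. With labels permuted within each day, exact p was 0.0556, again the smallest possible.

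At LP the ratio was lower, and the organs overlapped. In leaf it was 1.52, 3.18, 1.77, 1.70 and 3.50 on days 0, 1, 2, 4 and 8. In root it was 3.13, 1.61, 3.39, 1.90 and 2.70. All 10 LP values lay below all 8 SP values, also on day 0, before any day at low phosphate; the tables were made separately and this was not tested. On day 8 in root the ratio rested on 27 guide and 10 star reads, with a 95% interval of 1.27 to 6.25.

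The difference of leaf minus root at LP was -0.16 on the log2 scale, here with no read added (two-sided exact permutation p = 0.667, n = 5 in each organ). The slope of the log2 ratio on log2(day + 1), common to both organs, was 0.09 (exact permutation p = 0.564, with days permuted within organs). The sign of this slope turned without the leaf day 8 library, to -0.03. No trend of the ratio along the LP course was detectable in these 10 libraries.

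**Figure D4:**
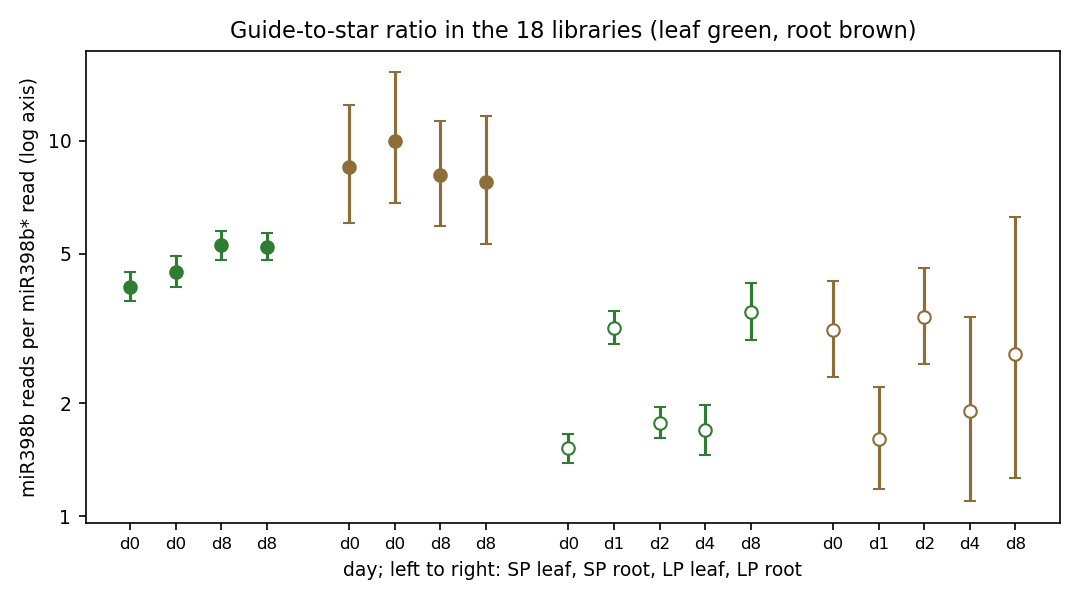
Reads of miR398b per read of miR398b* (log axis) in each of the 18 libraries, with exact 95% binomial intervals for counting error; filled points are SP, open points LP, leaf green and root brown. SP root (7.74 to 10.0) lies above SP leaf (4.09 to 5.27), and the LP libraries of both organs lie between 1.52 and 3.50.

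Other microRNA families known to target copper proteins were set beside miR398. The list held miR397, miR408, miR528 and miR857; in Arabidopsis or rice, miR397 targets laccases, miR408 plantacyanin and laccases, and miR528 ascorbate oxidase. No miR857 entry was listed, and 10 distinct entries of the other families passed the filter in each table. Several share reads, as miR528a and miR528b do.

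At SP all 10 were called higher in leaf than in root on both days, with a median log2 difference of 3.47 on day 0, against 0.36 over all entries. The shares of all entries called higher in leaf were the 43.6% and 38.9% given for miR398. The entry miR408b* was called lower in leaf on day 8 than on day 0, and no other list entry was called for a stage change in either organ.

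Along the LP course, 2 of the 10 entries fell in leaf (miR397b and miR408b*) and 4 fell in root (miR397b, miR408b*, miR528a and miR528b), and none rose. Over all entries, 1.99% were called lower in leaf and 2.65% in root. The median slope of the 10 was -0.61 in leaf and -0.58 in root, against 0.04 and 0.03 over all 151 entries. Slopes were below 0 for 8 of 10 entries in leaf and 10 of 10 in root. Since several entries share reads, these are fewer separate measurements, and the share of all entries below 0 was not counted. In leaf the exceptions were miR408 and miR408b, at 0.22 each, with nearly the same values.

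The most abundant entry, miR528b, had 233652, 206981, 269681, 59138 and 82906 RPM in leaf on days 0, 1, 2, 4 and 8, and 24046, 15843, 21476, 7129 and 1632 RPM in root. Its slope in leaf was -0.61 and did not pass (limma adjusted p = 0.241). The slope in root, -1.17, did (limma adjusted p = 0.0454). The related miR528a had a leaf slope of -0.62, which did not pass (limma adjusted p = 0.262), and a root slope of -1.22 (limma adjusted p = 0.0454). As with the miR398 guide, days 4 and 8 were the lowest in both organs.

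The star strand miR408b* went from 6599 RPM on day 0 to 715 on day 8 in leaf and from 471 to 35.9 in root. Its slopes were -1.15 (limma adjusted p = 0.0364) and -1.17 (limma adjusted p = 0.0396). The star strand miR397b* went from 1930 to 464 RPM in leaf and from 145 to 39.9 in root, with slopes of -0.62 and -0.63 that did not pass (limma adjusted p = 0.097 and 0.0837).

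**Figure D5:**
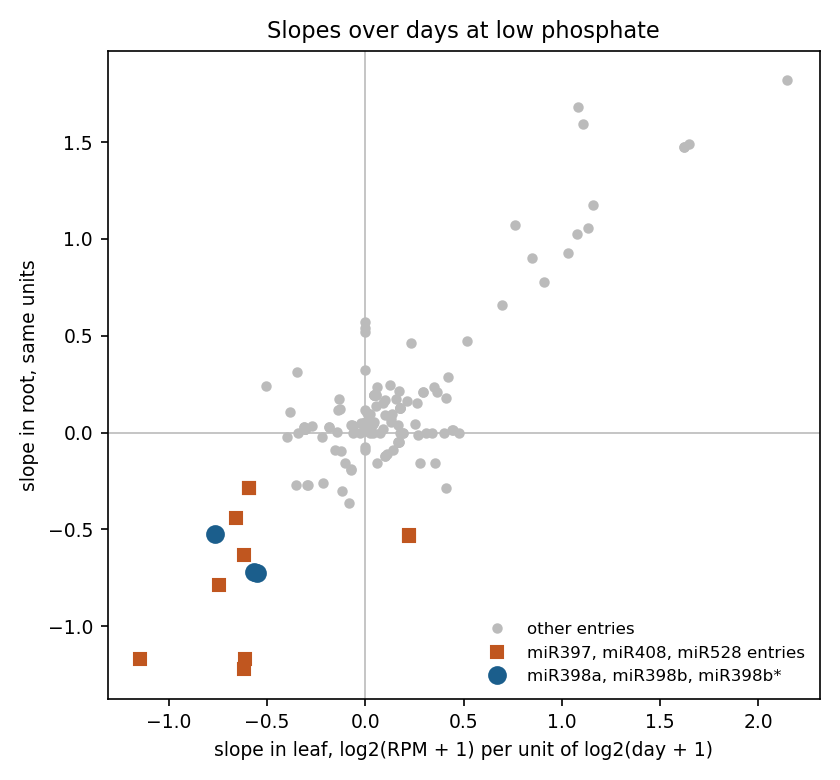
Slope on log2(day + 1) in leaf (x axis) and root (y axis) from limma on log2(RPM + 1), for each entry tested at LP except miR398a*, whose root cells were blank. The entries miR398a, miR398b and miR398b*, at -0.55 to -0.77 in leaf and -0.53 to -0.72 in root, lie in the lower left corner beside most miR397, miR408 and miR528 entries.

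The entries whose pattern was most like that of miR398 came from the same families. Among entries outside miR398, over the 8 SP libraries on log2(CPM + 1), the 5 highest correlations with miR398a were those of miR397b* (r = 0.998), miR528a*, miR528b*, miR528a and miR528b (r = 0.996), where the median of all entries was 0.42. The organ split dominates these 8 points. Over the 10 LP libraries, after each organ's mean was subtracted, the 5 highest were miR397b (r = 0.953), miR397a, miR397b*, miR408b* and miR528b (r = 0.881), against a median of -0.21. For miR398b* the 5 highest outside miR398 were miR397b* (r = 0.948), miR408b*, miR397a, miR397b and miR528b* (r = 0.830). Between miR398a and miR398b* r was 0.834. These values are descriptions, since the points share library, depth and scaling.

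Star strands as a class did not share one direction. Of 52 star entries tested at SP, 19 were called higher in leaf and 24 lower on day 0. Of 56 tested at LP, 2 rose and 2 fell in leaf, and 1 rose and 1 fell in root.

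By level, miR398a ranked 46 to 48 from the top among 149 entries in SP leaf libraries and 59 to 61 in SP root libraries. At LP it ranked 50 to 60 among 156 entries in leaf, and in root it ranked 69 on day 0 and 121 on day 8.

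Library totals over listed entries ran from 8528196 to 14285855 counts at SP. The LP depths recovered from the steps of low RPM values ran from 12885000 to 21385000 clean reads. Across 139 shared entries on the log2 scale, SP leaf libraries correlated with the LP leaf library of day 0 at r = 0.965 to 0.974 and with the root one at 0.884 to 0.898. The SP root libraries correlated at 0.965 to 0.971 with LP root and at 0.883 to 0.890 with LP leaf.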

How the data were processed

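The authors deposited a raw count per microRNA and library for SP, read as counts because all values are whole and library totals differ. For LP they deposited a signal, reads per 1000000 clean reads of the library (RPM), a formula stated in the series' design, with log2 folds and significance marks for single libraries. No aligner, microRNA release, genome build or test of the authors is named in the labels or headers. A deposited 0.01 stood for 0 reads (27 cells). The organ of each SP column was read from its block heading, which the fold headings contradict. A suffix in the SP column names is not explained.

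Entries of a family with identical values were counted once, leaving 197 SP and 156 LP entries. The SP test was edgeR 4.0.16, run in R 4.3.3, on counts (TMM, at least 10 counts in 2 libraries, 4 groups, 4 residual degrees of freedom; factors 0.734 to 0.937 in leaf and 1.23 to 1.29 in root). LP values were tested with limma 3.58.1 (trended, robust) on log2(RPM + 1), with blanks set to 0.5 and at least 1 RPM in 2 libraries. The slope fits left 6 residual degrees of freedom. The LP organ difference was fitted with a slope common to both organs, which left more. Adjusted p-values are Benjamini-Hochberg values over all entries, with a threshold of 0.05. LP reads were recovered from the steps of low values, and 100% of those were whole within 0.03 reads. DESeq2 1.42.0 served as an alternative. Intervals and floors cover counting error only. Both fits were run on simulated data with a fixed spread and, for LP, straight slopes, as a check of the code only.

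The members, the list of families and the rule for named entries were chosen with earlier results of these data known. Named were all miR398 entries, the 4 most abundant other list entries with 1 per family first, list entries called or against the rest, and the 5 nearest patterns. The rule of 2-fold with 30 reads was set after the values were seen. Each setting was varied in turn; one, scaling LP to listed reads, was added after seeing the data. No sequence is printed, and the third deposited file, a subset of the LP table, was not used here.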

Additional observations from a re-analysis of the deposited data

How the results depend on the processing

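The leaf-to-root differences kept their direction and their side of the threshold in every alternative run. This held for all 4 miR398 entries at SP on both days and for miR398a, miR398b and miR398b* at LP. Under the filter, the passes of miR398a* add no support, since it entered through leaf alone. At SP the values of miR398a ranged from 2.64 to 3.48 on day 0, and at LP from 2.74 to 4.59. None of the alternatives made a stage change of a miR398 entry, or a slope difference between organs, pass.

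The LP trends depend on the setting. The leaf slope of miR398b* was not past the threshold with edgeR on recovered reads (-0.80), with each organ fitted alone (-0.77, adjusted p = 0.175) and with scaling to listed reads (-0.47, adjusted p = 0.0587). It ranged from -0.95 to -0.54 when 1 library was left out. The leaf slope of miR398a* passed on day itself (-0.16) and with median centring (-0.48), and ranged from -0.47 to -0.10 without 1 library. It passed without leaf day 4. The root blanks of miR398a* entered the same estimate of spread, so these passes rest partly on set values.

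In root, slopes passed on day itself (-0.27 for miR398a and miR398b, -0.21 for miR398b*) and with a pseudocount of 0.1 (-0.88, -0.87 and -0.80). That of miR398b* also passed with median centring (-0.61) and scaling to listed reads (-0.54). Without 1 library they ranged from -0.78 to -0.66 for miR398a, -0.78 to -0.65 for miR398b and -0.69 to -0.45 for miR398b*; the guides passed without leaf day 4 or root day 2, and miR398b* without leaf day 4 or leaf day 8. The cause was not tested.

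Values near 0 changed sign. The leaf stage change of miR398b* was 0.012 with median-ratio scaling, 0.10 with scaling to listed reads, 0.012 with DESeq2 and 0.0081 with only its groups fitted, and -0.29 to 0.22 without 1 library. That of miR398a* in leaf ranged from -0.88 to 0.030. In root that of miR398a* was 0.15 with limma on log2 CPM and -1.15 to 1.63 without 1 library; for miR398a and miR398b the ranges were -0.11 to 0.24 and -0.12 to 0.24. The stage change in leaf minus root was -0.13 for miR398a and -0.12 for miR398b with no filter. Without 1 library it ranged from -0.15 to 0.45 for miR398a, -0.14 to 0.47 for miR398b and -2.05 to 0.73 for miR398a*. The LP slope difference was -0.090 for miR398a and -0.11 for miR398b with a pseudocount of 5, and 0.0014 and 0.070 for miR398b* with a pseudocount of 0.1 and scaling to listed reads. Without 1 library it ranged from -0.14 to 0.26 for miR398a and -0.18 to 0.24 for miR398b. The LP slope of the guide-to-star ratio ranged from -0.026 to 0.21.

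With the replicate block, permuting within day and replicate number, the SP guide-to-star difference of -0.82 had exact p = 0.125, and within days alone (-0.82) p = 0.0556, the smallest these designs allow. Same-numbered SP libraries deviated together only weakly, if at all (r from -0.11 to 0.19). Such values cannot show whether the numbers pair libraries, and the main fit used no block. The replicate block left the calls of all miR398 entries as they were; the count of stage changes that differed between organs went from 9 to 1.

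Counts over all entries moved by more than 1.5 times for stage changes and slopes. The SP leaf count of 15 ranged from 0 to 21, the SP root count of 0 from 0 to 19, and the count for their difference, 9, from 0 to 20. The LP slope counts of 8 in each organ ranged from 0 to 25 in leaf and from 0 to 24 in root. LP has 1 library per day, and miR398b* had only 10 reads in root on day 8, which sets the width of its counting interval.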
